A study of Mus musculus with 10 samples.

Results

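The miR-29 family was followed in hearts of CITED4 knockout mice and of floxed control mice, all male C57Bl6N animals, 1 week after transverse aortic constriction, an operation that narrows the aorta and loads the left heart with pressure. Its members were found by name in tables of mature miRNAs from small RNA sequencing: 7 of the 1139 deposited miRNAs are arms of the miR-29 hairpins, and all 7 were present. Of these, 3 are 3p arms (mmu-miR-29a-3p, mmu-miR-29b-3p and mmu-miR-29c-3p) and 4 are 5p arms (mmu-miR-29a-5p, mmu-miR-29b-1-5p, mmu-miR-29b-2-5p and mmu-miR-29c-5p). The prefix mmu, for mouse, is left out below. Each genotype gave 5 libraries, and the floxed controls carry the Cited4 gene flanked by sites for recombination. CITED4 is a transcriptional co-regulator. The labels give neither the driver of the deletion nor the age of the animals, and every heart of both groups had undergone the operation, so levels in unoperated hearts were not analysed here. It is not stated whether each library stands for its own animal. The p-values below therefore reflect variation among libraries, part of which can be technical.

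A miRNA is cut from a hairpin precursor that yields a duplex of a 5p and a 3p arm, and usually one of the arms is loaded into the silencing complex while the other is degraded. The loaded arm finds messages through its seed, a short stretch near its 5′ end, and lowers their level and translation. The miR-29 3p arms are known for repressing messages of fibrillar collagens, elastin and fibrillin, the matrix proteins laid down in fibrosis, and their level is known to fall beside infarcted heart tissue. In heart muscle cells, miR-29 has also been linked to hypertrophic growth.

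The mature sequences show what the arms share. They are RefSeq sequences on GRCm38.p6, written 5′ to 3′, with the seed (bases 2 to 8) in capitals.
miR-29a-3p: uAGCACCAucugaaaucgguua
miR-29c-3p: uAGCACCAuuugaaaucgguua
miR-29b-3p: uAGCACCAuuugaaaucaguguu
miR-29a-5p: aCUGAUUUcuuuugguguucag
miR-29c-5p: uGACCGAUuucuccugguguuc
miR-29b-1-5p: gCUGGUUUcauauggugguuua
miR-29b-2-5p: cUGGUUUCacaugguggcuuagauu

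The 3 3p arms had the same seed, AGCACCA, and among the 951 miRNAs of the tables that had a RefSeq sequence no other miRNA carried it. Counted from 1 at the 5′ end, miR-29c-3p differed from miR-29a-3p by a single substitution, C10U. From miR-29c-3p to miR-29b-3p the substitutions were G18A, U21G and A22U over the 22 positions compared, and miR-29b-3p was 1 base longer, at 23 bases. The last 6 bases of miR-29b-3p, AGUGUU, form an element known in human cells to carry miR-29b into the nucleus. The same ending was found in 2 of the 951 miRNAs, the other being miR-92b-5p, and it was absent from miR-29a-3p and miR-29c-3p. Each of the 4 5p arms had a seed of its own, found in 1 of the 951 miRNAs. Because the 3p arms are near-identical and the treatment of multiply matching reads is not given in the sources used here, their reads could have been split or exchanged in the counting. No arm had counts identical to those of another miRNA.

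The family comes from a pair of clusters (GRCm38). On chromosome 6, minus strand, the hairpins of miR-29a (31062660 to 31062747) and miR-29b-1 (31063023 to 31063093) lie 275 bases apart. In GENCODE M21 the miR-29b-1 hairpin overlaps, by its 5′ end, the single annotated exon of the long noncoding RNA Gm27019 (31063092 to 31063495), and no annotated gene other than the miRNA gene itself covers the miR-29a hairpin. On chromosome 1, plus strand, the hairpins of miR-29b-2 (195037040 to 195037120) and miR-29c (195037547 to 195037634) lie 426 bases apart, both within an exon of the noncoding transcript A330023F24Rik. On the opposite strand they fall within an exon of Cd46, which encodes a complement regulatory protein. The hairpins of miR-29b-1 and miR-29b-2 are shown because they release the same 3p arm from different chromosomes, with the mature arms in capitals.
Mir29b-1: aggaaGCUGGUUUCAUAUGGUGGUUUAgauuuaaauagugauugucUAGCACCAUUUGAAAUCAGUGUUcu
Mir29b-2: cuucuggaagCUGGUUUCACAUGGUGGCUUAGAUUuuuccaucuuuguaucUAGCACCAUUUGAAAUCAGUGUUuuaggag

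A read of miR-29b-3p therefore cannot be assigned to a cluster, whereas the 5p arms of these hairpins can be told apart. In the tables, miR-29b-3p is 1 row, and its value is the sum over both hairpins.

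To show what this seed pairs with, the 3′ UTRs of 5 matrix genes known as miR-29 targets in heart were searched for its complement, TGGTGCT, on the strand of the message (GENCODE M21, GRCm38, the longest 3′ UTR per gene). The longer form TGGTGCTA, which contains that complement, adds the base opposite the first base of the miRNA. Of 20814 genes searched, 13.2% held TGGTGCT and 2.88% held TGGTGCTA. The collagen gene Col1a1 had 1 match and Col3a1 had 1, each of the longer form. Eln, the elastin gene, had 3 matches, 2 of them of the longer form, and Fbn1, which encodes fibrillin, had 2, with 1 of the longer form. Col1a2 had 0 in this window. The first match of each gene is printed with the bases around it and the match in capitals, at chr11:94952525-94952548 (plus strand) for Col1a1, chr1:45348969-45348992 (plus) for Col3a1, chr5:134703733-134703756 (minus) for Eln and chr2:125301170-125301193 (minus) for Fbn1.
Col1a1: gggaaggaatttcTGGTGCTAtag
Col3a1: caaaatgtctcaaTGGTGCTAtaa
Eln: acctcatcaacgtTGGTGCTActg
Fbn1: tctgttgtctgttTGGTGCTAgta

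These matches describe the sequence alone, since messenger RNA was not measured in these libraries.

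Library totals were between 8909932 and 18369483 counts in the knockout group and between 7526091 and 11608900 counts in the control group. The edgeR filter for low counts kept 457 miRNAs, among them all 7 arms. Levels are CPM, counts scaled to a common library size after TMM factors, without scaling for length, since each read stands for 1 mature miRNA. The TMM factors were 0.790 and 0.820 for control replicates 4 and 5 and 1.22 for knockout replicate 1. The order of libraries can therefore differ by library totals alone. A count of 0 would have allowed a level of up to 0.399 CPM in the shallowest library (3 counts, unscaled). Every arm was above that in every library, the lowest being miR-29b-1-5p in control replicate 5 at 1.09 CPM (9 counts). Heart muscle markers fixed for the check of the tissue, had counts in every library (6 of 6), led by miR-1a-3p at 299919 ± 77136 CPM in knockout and 351241 ± 122216 CPM in control hearts. The libraries did not separate by genotype: on the first principal component, which held 44.7% of the variance and was computed without the miR-29 arms, control replicates 3, 4 and 5 lay with knockout replicate 4 on one side, and the other 6 libraries lay on the other. The labels give no batch or date for this. The levels of the miR-29 arms and the ratios between them are therefore given with each library shown. Group estimates of other miRNAs are given without values per library.

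Together the 7 arms took 1.47% ± 0.17 of all counts in knockout hearts and 1.70% ± 0.41 in control hearts (SD, n = 5 each). In knockout hearts 83.0% ± 1.74 of these were miR-29a-3p, 15.1% ± 1.90 miR-29c-3p and 1.44% ± 0.28 miR-29b-3p, and in control hearts 80.7% ± 3.06, 17.5% ± 3.10 and 1.29% ± 0.03. The 4 5p arms made up 0.464% ± 0.043 of the family in knockout hearts and 0.445% ± 0.048 in control hearts. By mean level over 10 libraries the order was miR-29a-3p, miR-29c-3p, miR-29b-3p, miR-29c-5p, miR-29a-5p, miR-29b-2-5p and miR-29b-1-5p. miR-29a-3p was the 19th most abundant of all deposited miRNAs, and miR-29b-1-5p ranked 379th. miR-29a-3p exceeded miR-29c-3p in all 10 libraries, by 3.54 to 6.59 times, and miR-29c-3p exceeded miR-29b-3p in all 10, by 7.28 to 17.1 times. The 3 middle 5p arms lay close together: miR-29c-5p was above miR-29a-5p in 9 of 10 libraries, with a ratio of means of 1.15, and miR-29a-5p was above miR-29b-2-5p in 6 of 10, with a ratio of means of 1.03. This last pair did not differ beyond its spread. miR-29b-1-5p was below miR-29b-2-5p in every library. Counting efficiency can differ between sequences, so an order of levels between arms is one of reads.

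**Figure D1:**
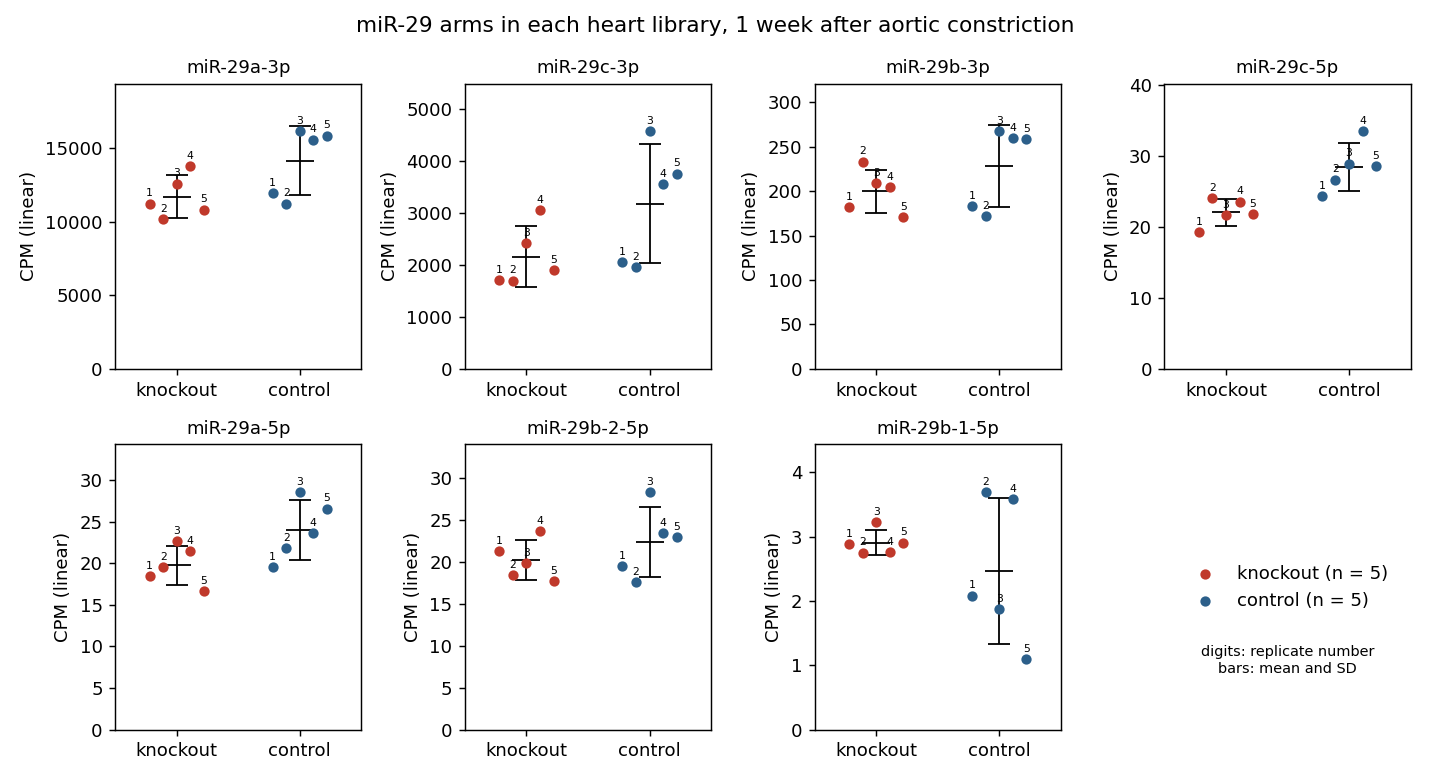
Level of each miR-29 arm in CPM (vertical axes, linear, from 0) in every library of knockout (left, red) and control hearts (right, blue). Digits are replicate numbers and bars are mean and SD (n = 5). On this TMM scale, control replicates 3, 4 and 5 were the highest libraries for miR-29a-3p, miR-29c-3p and miR-29b-3p, and the groups did not overlap for miR-29c-5p. Neither held by library totals alone.

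The 3p arms, which carry the collagen-directed seed, had lower means in knockout hearts, but none passed the test. miR-29a-3p, the dominant arm of the chromosome 6 cluster, stood at 11225, 10148, 12588, 13754 and 10814 CPM in knockout replicates 1 to 5, against 11962, 11231, 16147, 15575 and 15846 CPM in control replicates 1 to 5. The groups overlapped: control replicates 1 and 2 lay among the knockout libraries, while control replicates 3, 4 and 5 were above all of them. By library totals alone this order changed: knockout replicate 1 had 136088 counts in 9943985 and control replicate 4 had 126166 in 10260171. The fold change of miR-29a-3p was 0.827, with a log2 fold change of -0.27 ± 0.15 (SE), a 95% interval from -0.61 to 0.06 and an adjusted p of 0.64 (edgeR quasi-likelihood test).

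miR-29c-3p, from the chromosome 1 cluster, had the lowest fold change of the family. It was at 1704, 1698, 2412, 3057 and 1898 CPM in knockout replicates 1 to 5, against 2045, 1953, 4567, 3552 and 3751 CPM in control replicates 1 to 5. Here too, on the TMM scale, control replicates 1 and 2 lay within the knockout range and the other 3 controls above it. By library totals alone, knockout replicate 4 (32210 counts in 10727780) was above control replicate 4 (28772 in 10260171). The fold change was 0.679, with a log2 fold change of -0.56 ± 0.25 and a 95% interval from -1.11 to -0.01. Every one of the 5 knockout values fell short of the control mean (unadjusted p = 0.046, adjusted p = 0.64, edgeR). When the first component was added as a covariate, an alternative chosen after seeing the data, its log2 fold change was -0.10, and without control replicate 3 it was -0.37.

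miR-29b-3p, the arm shared by both clusters, was at 182, 233, 209, 204 and 171 CPM in knockout replicates 1 to 5, against 183, 172, 268, 260 and 259 CPM in control replicates 1 to 5. The groups overlapped, with control replicates 3, 4 and 5 again on top on the TMM scale. On that scale knockout replicate 2 was the highest knockout library for this arm and the lowest for miR-29a-3p and miR-29c-3p. The log2 fold change was -0.19 ± 0.16 (95% interval -0.54 to 0.16, adjusted p = 0.65, edgeR). It was -0.10 without control replicate 3, -0.12 without knockout replicate 5 and -0.01 with the component as covariate. In whole heart RNA, fewer cells of a type and less miRNA per cell cannot be told apart, and this holds for every level given here.

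The 5p arms are the minor products of the hairpins. miR-29c-5p was the arm whose groups did not overlap on the TMM scale. It was at 19.2, 24.1, 21.7, 23.5 and 21.8 CPM in knockout replicates 1 to 5, against 24.4, 26.6, 28.9, 33.5 and 28.5 CPM in control replicates 1 to 5. The highest knockout library, replicate 2, and the lowest control library, replicate 1, were separated by less than 1 CPM. By library totals alone the groups overlapped: knockout replicate 2 had 245 counts in 8909932 and control replicate 5 had 235 in 10062700. On the TMM scale, 3 (0.656%) of all 457 miRNAs tested had every knockout library below every control library. The other 2 (miR-181c-3p and miR-700-3p) are named because of their values. For miR-29c-5p the fold change was 0.778 and the log2 fold change -0.36 ± 0.15, with a 95% interval from -0.68 to -0.05 (unadjusted p = 0.028, adjusted p = 0.64, edgeR). With library totals in place of TMM factors its log2 fold change was -0.24 (unadjusted p = 0.23, edgeR).

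miR-29a-5p was at 18.5, 19.6, 22.6, 21.5 and 16.7 CPM in knockout replicates 1 to 5, against 19.5, 21.8, 28.6, 23.6 and 26.5 CPM in control replicates 1 to 5. Its groups overlapped, and its log2 fold change of -0.28 ± 0.16 was close to that of miR-29a-3p from the same hairpin (adjusted p = 0.64, edgeR), and was -0.18 without control replicate 3. miR-29b-2-5p, which reports on the chromosome 1 hairpin, was at 21.3, 18.4, 19.8, 23.6 and 17.7 CPM in knockout replicates 1 to 5, against 19.5, 17.6, 28.3, 23.5 and 22.9 CPM in control replicates 1 to 5. Its groups overlapped almost fully, and the log2 fold change was -0.15 ± 0.17 (adjusted p = 0.69, edgeR). This value was -0.02 without control replicate 3, -0.09 without knockout replicate 2 or 5, and 0.01 with the component as covariate.

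miR-29b-1-5p, which reports on the chromosome 6 hairpin, was the rarest arm and had the one positive estimate. It was at 2.89, 2.75, 3.22, 2.75 and 2.91 CPM in knockout replicates 1 to 5, against 2.08, 3.69, 1.87, 3.58 and 1.09 CPM in control replicates 1 to 5. Knockout libraries were close to each other, while control libraries lay on both sides of them. These levels rest on 9 to 53 counts per library. Counting alone gives a coefficient of variation of 16.6% in knockout and 23.4% in control libraries, against observed values of 6.59% and 46.0%. The log2 fold change was 0.23 ± 0.32, with a 95% interval from -0.47 to 0.93 and an adjusted p of 0.74 (edgeR). It was 0.07 without control replicate 5, 0.41 without control replicate 4 and 0.45 without control replicate 2. For miR-29a-3p, counting error was 0.261% in knockout and 0.275% in control libraries, against an observed 12.4% and 16.6%, so that depth does not limit that arm.

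Across the family, 6 of 7 arms had a negative estimate, with a median log2 fold change of -0.27, while 46.8% of the 457 miRNAs tested were negative and their median was 0.03. With library totals in place of TMM factors the median of all moved to 0.14, and 6 of 7 arms were still negative, at -0.46 for miR-29c-3p, -0.24 for miR-29c-5p, -0.17 for miR-29a-5p, -0.16 for miR-29a-3p, -0.07 for miR-29b-3p and -0.04 for miR-29b-2-5p. With the component as covariate 5 of 7 were negative, among them miR-29a-3p at -0.07, miR-29a-5p at -0.14 and miR-29c-5p at -0.27. At an adjusted p of 0.05, 0 of 7 arms were called, and 0 of 457 miRNAs (0%) were, while 29 by edgeR, and 45 of 1105 by DESeq2 (which also called 0), had an unadjusted p under 0.05. At an unadjusted p under 0.05, 2 of 7 arms were lower in knockout, both from the miR-29c hairpin, where 3.5% of the 457 miRNAs were (16). The arms are not independent measurements, since pairs share a hairpin, clusters share a primary transcript and all share a library. DESeq2 and limma-voom with sample weights also called 0 of 7 arms, with 2 and 3 at an unadjusted p under 0.05. With library totals, and likewise with the first component as covariate, 0 arms were under 0.05 in edgeR's fit. In fits that left out 1 library, 0 to 2 arms had an unadjusted p under 0.05, and the count was 0 when knockout replicate 1, 3 or 5, or control replicate 3 or 4, was dropped.

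**Figure D2:**
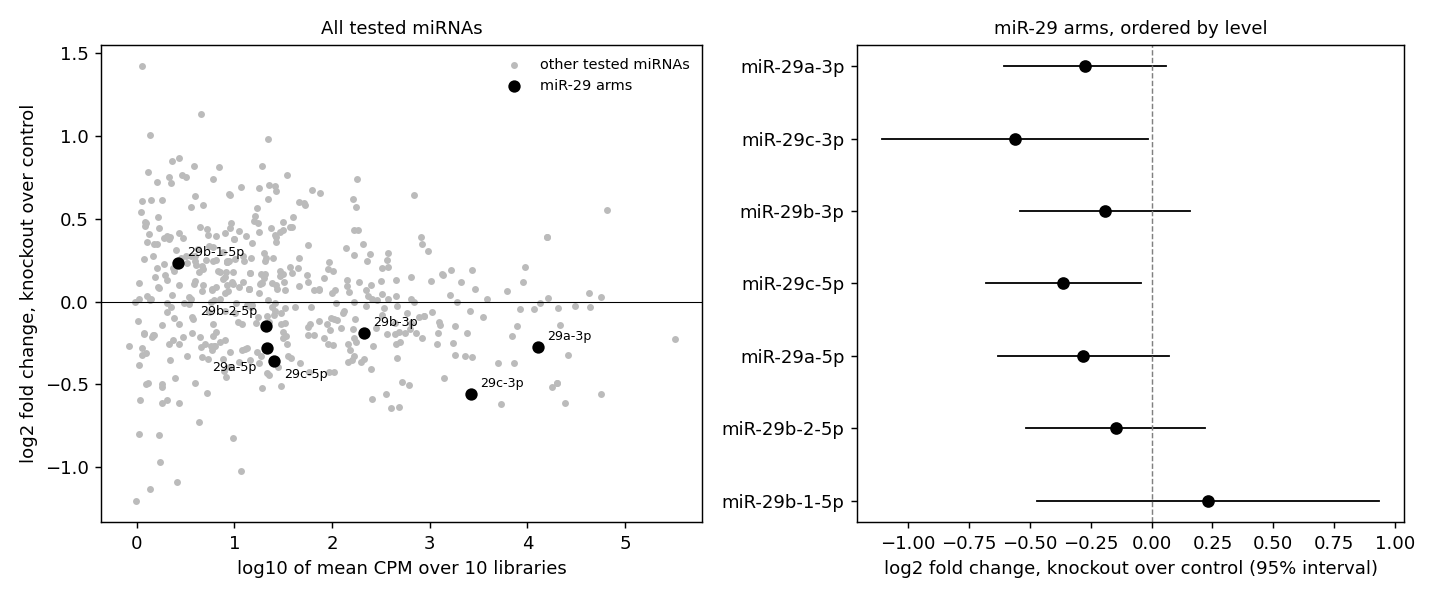
Left, log2 fold change (knockout over control) against log10 of the mean CPM for the 457 tested miRNAs, with the miR-29 arms in black. Right, the same fold changes of the 7 arms with 95% intervals. Intervals of miR-29c-3p and miR-29c-5p end just below 0, at -0.01 and -0.05, and those of the other 5 arms include 0.

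Ratios between arms within a library do not depend on how libraries are scaled, and they ask whether the reads of arms shifted against each other. For 6 ratios, knockout and control were compared by an exact two-sided permutation test of log2 ratios, adjusted over the 6, where the smallest p that 5 libraries against 5 allow is 0.0079. None passed. The miR-29a hairpin gave 594 ± 55.6 reads of the 3p arm per read of the 5p arm in knockout hearts and 589 ± 54.0 in control hearts (p = 0.94, adjusted p = 0.94, exact permutation test). Its 5p arm was thus 0.169% ± 0.016 of the hairpin's reads in knockout and 0.170% ± 0.016 in control libraries. The miR-29c hairpin gave 97.3 ± 23.2 in knockout and 110 ± 34.6 in control libraries (p = 0.58, adjusted p = 0.76, exact permutation test), so its 5p arm held a larger share, 1.06% ± 0.24 and 0.968% ± 0.295. For miR-29b, the 5p arms of both hairpins were 10.4% ± 1.37 of the reads in knockout and 9.92% ± 0.99 in control libraries.

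Relative to miR-29a-3p, miR-29c-3p was at 0.152, 0.167, 0.192, 0.222 and 0.176 in knockout replicates 1 to 5, against 0.171, 0.174, 0.283, 0.228 and 0.237 in control replicates 1 to 5. Control replicate 3 had the highest share of miR-29c-3p and knockout replicate 1 the lowest, and the groups overlapped (log2 difference -0.25, p = 0.17, adjusted p = 0.52, exact permutation test). Without control replicate 3 the difference was -0.15. miR-29b-3p to miR-29a-3p was at 0.0162, 0.0230, 0.0166, 0.0149 and 0.0158 in knockout replicates 1 to 5, against 0.0153, 0.0153, 0.0166, 0.0167 and 0.0163 in control replicates 1 to 5. Apart from knockout replicate 2, all libraries lay within 0.0149 to 0.0167. The difference was 0.09 on the log2 scale (p = 0.63, adjusted p = 0.76, exact permutation test), and without knockout replicate 2 it was -0.02.

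miR-29b-3p to miR-29c-3p averaged 0.0976 ± 0.0264 in knockout and 0.0757 ± 0.0131 in control libraries (log2 difference 0.34, p = 0.17, adjusted p = 0.52, exact permutation test), and the difference was 0.21 without knockout replicate 2. For the 5p arms that tell the miR-29b hairpins apart, miR-29b-1-5p to miR-29b-2-5p was 0.147 ± 0.020 in knockout and 0.119 ± 0.066 in control libraries. This is a ratio of reads between different sequences, and the output of the clusters was not measured. All 5 knockout libraries lay above the control mean of log2 ratios, inside the control range of 0.0501 to 0.212 (log2 difference 0.49, p = 0.28, adjusted p = 0.56, exact permutation test). The difference was 0.23 without control replicate 5 and 0.75 without control replicate 2. Of the 29b 5p reads, 87.3% ± 1.53 in knockout and 89.8% ± 5.21 in control hearts came from the chromosome 1 hairpin, although miR-29a-3p of chromosome 6 exceeded miR-29c-3p of chromosome 1 in every library.

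**Figure D3:**
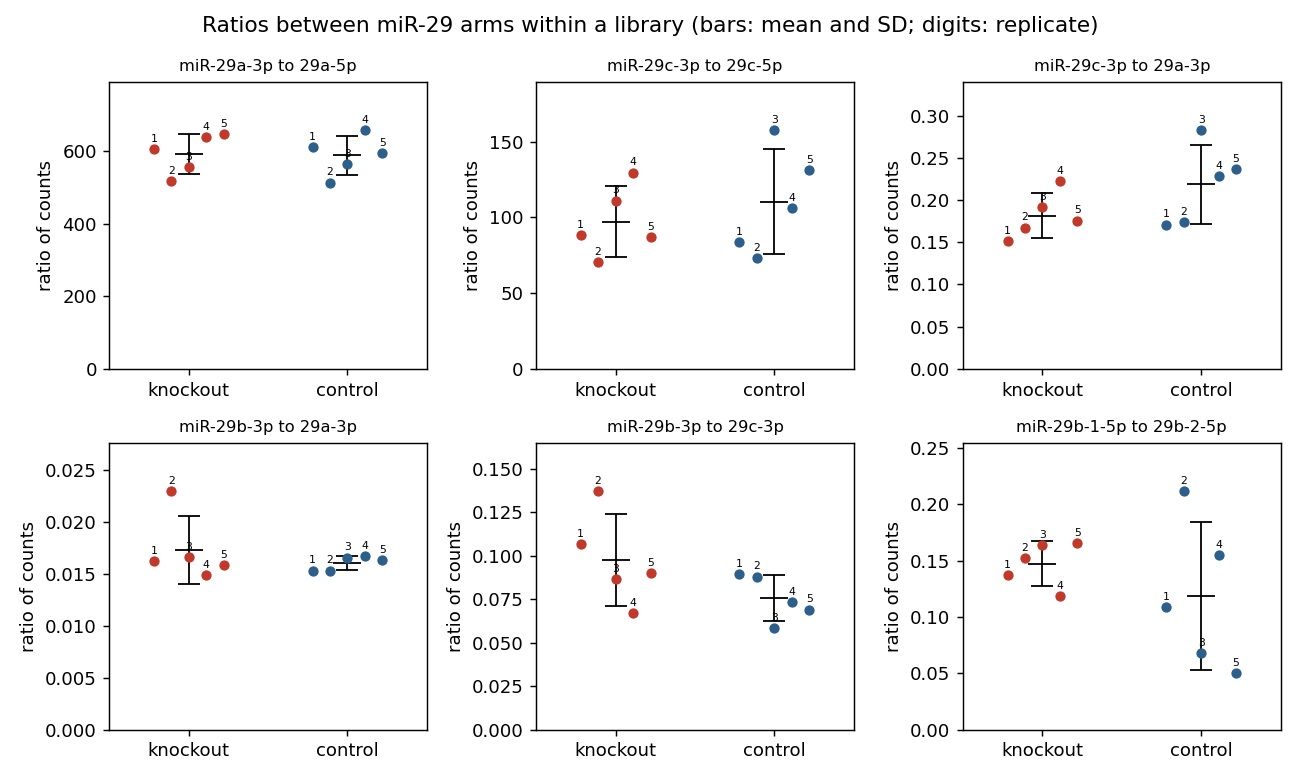
Ratios of counts between miR-29 arms in each library (vertical axes, linear, from 0), knockout left and control right, with mean and SD (n = 5) and replicate numbers. The ratio of miR-29b-3p to miR-29a-3p was 0.0230 in knockout replicate 2 and between 0.0149 and 0.0167 in the other 9 libraries.

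The arms were next compared over the 10 libraries, as 7 relations with permutation tests (100000 resamples) and Benjamini-Hochberg adjustment. miR-29a-3p and miR-29c-3p, from different chromosomes, varied together (Pearson r = 0.98, permutation p = 1e-05, the smallest these resamples can give, adjusted p = 7e-05, and Spearman rho = 0.99, permutation p = 1e-05). Without the 2 libraries farthest from the median of miR-29a-3p (control replicates 3 and 5), r was 0.97, and for deviations from the group means it was 0.97. miR-29a-3p also varied with miR-29a-5p (r = 0.86, permutation p = 0.0014, adjusted p = 0.0048, and rho = 0.85, permutation p = 0.0031), with r = 0.71 (permutation p = 0.048) without the same libraries. With library totals in place of TMM factors, miR-29a-3p with miR-29c-3p gave r = 0.87 (permutation p = 0.0038, adjusted p = 0.016). With the first principal component, miR-29a-3p had r = 0.95 and miR-29c-3p r = 0.96. An exchange of reads between these near-identical arms in the counting was not tested.

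Relations with miR-29b-3p had lower r over the 10 libraries, and single libraries moved them both ways. With miR-29a-3p, r was 0.75 (permutation p = 0.018, adjusted p = 0.024) and rho 0.71 (permutation p = 0.027), and without control replicates 3 and 5, r was 0.55 (permutation p = 0.16). With miR-29c-3p, r was 0.78 (permutation p = 0.012, adjusted p = 0.024) and rho 0.68 (permutation p = 0.035), and without the same libraries, r was 0.59 (permutation p = 0.13). With miR-29b-2-5p, r was 0.72 (permutation p = 0.020, adjusted p = 0.024) and rho 0.72 (permutation p = 0.024), and without control replicates 3 and 4, r was 0.51 (permutation p = 0.20). Within the knockout libraries alone these 3 relations had r of 0.02, 0.14 and 0.06, and within the control libraries alone 0.999, 0.98 and 0.91. Without knockout replicate 2, the library with the high ratio of miR-29b-3p to miR-29a-3p, the same relations had r of 0.98, 0.95 and 0.84 over all other libraries (permutation p = 0.00011, 0.00042 and 0.0037, adjusted p = 0.00038, 0.00098 and 0.0052). With miR-29b-1-5p it was negative and did not pass (r = -0.45, permutation p = 0.18, adjusted p = 0.18, rho = -0.43, permutation p = 0.22, and r = -0.67 without control replicates 3 and 4). miR-29c-3p with miR-29c-5p gave r = 0.71 (permutation p = 0.021, adjusted p = 0.024) and rho = 0.65 (permutation p = 0.048, adjusted p = 0.056), and r = 0.63 (permutation p = 0.092) without control replicates 3 and 5. The points of each relation share their library, its depth and its scaling. The count of relations that passed for r, 6 of 7, was 2 of 7 without knockout replicate 5 or control replicate 3. With library totals in place of TMM factors it was 4 of 7: miR-29c-3p had r = 0.62 with miR-29b-3p (permutation p = 0.061, adjusted p = 0.086) and r = 0.53 with miR-29c-5p (permutation p = 0.12, adjusted p = 0.14).

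**Figure D4:**
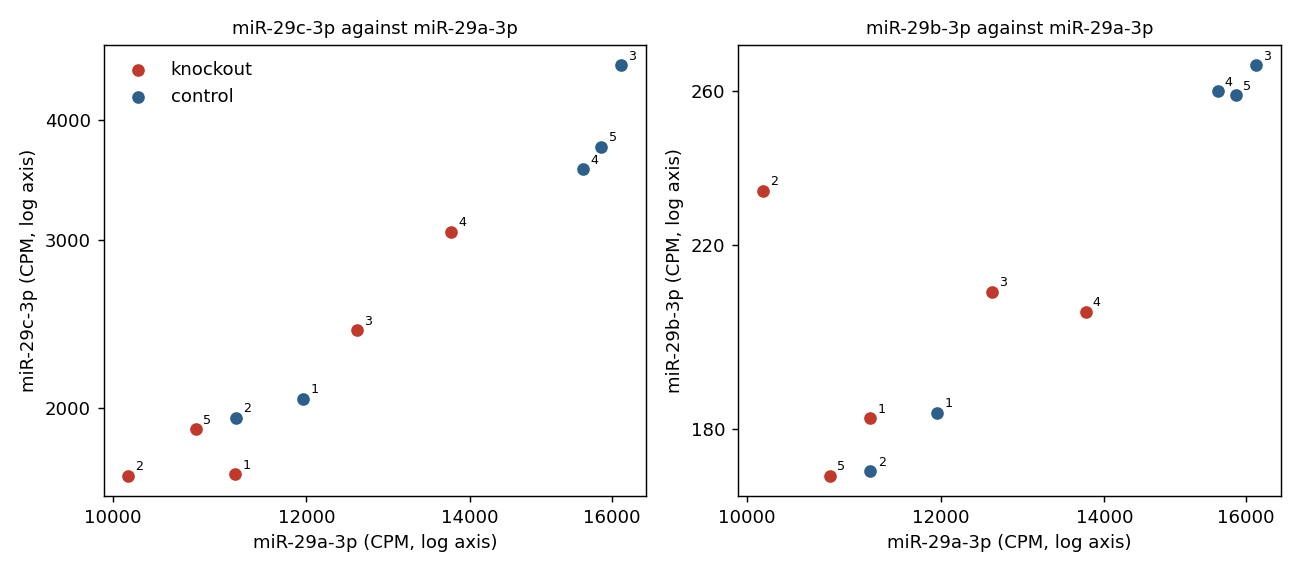
Level of miR-29c-3p (left) and miR-29b-3p (right) against miR-29a-3p in CPM, all axes logarithmic, 1 point per library with its replicate number, knockout red and control blue. Libraries of both genotypes lie along one line for miR-29c-3p (r = 0.98, and 0.87 with library totals). For miR-29b-3p, knockout replicate 2 stands apart by its high ratio to miR-29a-3p, while its level is below control replicates 3, 4 and 5.

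Outside the family, the tested miRNAs whose log2 CPM was most like the log2 of the summed 3p arms over the 10 libraries were found by Pearson's r, given as a description without a test. The 4 highest were miR-133a-3p (r = 0.98) and miR-133b-3p (r = 0.98), both muscle miRNAs, miR-30c-2-3p (r = 0.98) and miR-378a-3p (r = 0.96), encoded within the metabolic co-regulator gene Ppargc1b. The 2 lowest were miR-21a-5p (r = -0.98), a miRNA known to rise in fibrotic heart, and miR-369-3p (r = -0.97) of the imprinted Dlk1-Dio3 cluster. With library totals these r values were 0.82 to 0.97 for the 4 highest, -0.50 for miR-21a-5p and -0.55 for miR-369-3p. miR-21a-5p averaged 77287 ± 25544 CPM in knockout and 52572 ± 28415 CPM in control hearts, against 14060 ± 2017 and 17554 ± 3512 CPM for the summed miR-29 3p arms.

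The marker lists of cell types were set beside miR-29a-3p after the likeness to miR-21a-5p was seen, so these relations are a description without a test. The fibroblast and mesenchymal list (miR-21a-5p, both miR-199a arms, miR-199b-5p and both miR-214 arms) had counts for 6 of 6 members in every library. Most of its sum was miR-21a-5p, with 79.7% ± 2.41 in knockout and 77.6% ± 1.71 in control libraries, so the sum largely repeats that miRNA. Summed, it was at 101135, 132908, 82701, 52592 and 112849 CPM in knockout replicates 1 to 5, against 109079, 101642, 40236, 46315 and 38669 CPM in control replicates 1 to 5. The 4 libraries with the lowest sums, control replicates 3, 4 and 5 and knockout replicate 4, were the 4 with the highest miR-29a-3p and miR-29c-3p. Over the 10 libraries r was -0.98 and rho -0.94, and r was -0.96 without control replicates 3 and 5 and -0.98 for deviations from the group means. For the sum of the other 5 members alone r was -0.96 and rho -0.94. The relation depended on how libraries were scaled: with library totals in place of TMM factors r was -0.39 for the list and -0.36 for the other 5 members. These alternatives were chosen after seeing the data. The part of these markers in the genotype estimates above was not tested.

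The heart muscle list (6 of 6 members counted in every library) ran from 220815 to 387073 CPM in knockout and from 242896 to 504525 CPM in control libraries, with r = 0.59 and rho = 0.60. Without control replicates 4 and 5 that r was 0.21, and with library totals it was -0.20. Most of this sum was miR-1a-3p, so it largely repeats that miRNA. Of the list's mean of 304389 CPM in knockout libraries, miR-1a-3p averaged 299919, and of 357042 CPM in control libraries, 351241. On the same list, miR-133a-3p and miR-133b-3p each had r = 0.98 with the summed 3p arms (0.95 and 0.89 with library totals). The r of the other members taken singly is not given here. The erythroid list held both arms of miR-144, counted in every library, while miR-451a was not found by name among the miRNAs of the tables. This list ran from 214 to 865 CPM in knockout and from 279 to 1105 CPM in control libraries. For it r was 0.77 and rho 0.72, with r = 0.73 without knockout replicate 1 and control replicate 5 and r = 0.32 with library totals. The endothelial, smooth muscle, leukocyte and epithelial and liver lists, all with every member counted in every library, gave r of 0.49, 0.17, 0.07 and -0.27 and rho of 0.28, 0.16, -0.01 and -0.19. Without the 2 farthest libraries these 4 r values were 0.07, 0.20, 0.03 and 0.20, and with library totals they were 0.34, 0.43, 0.44 and 0.24.

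**Figure D5:**
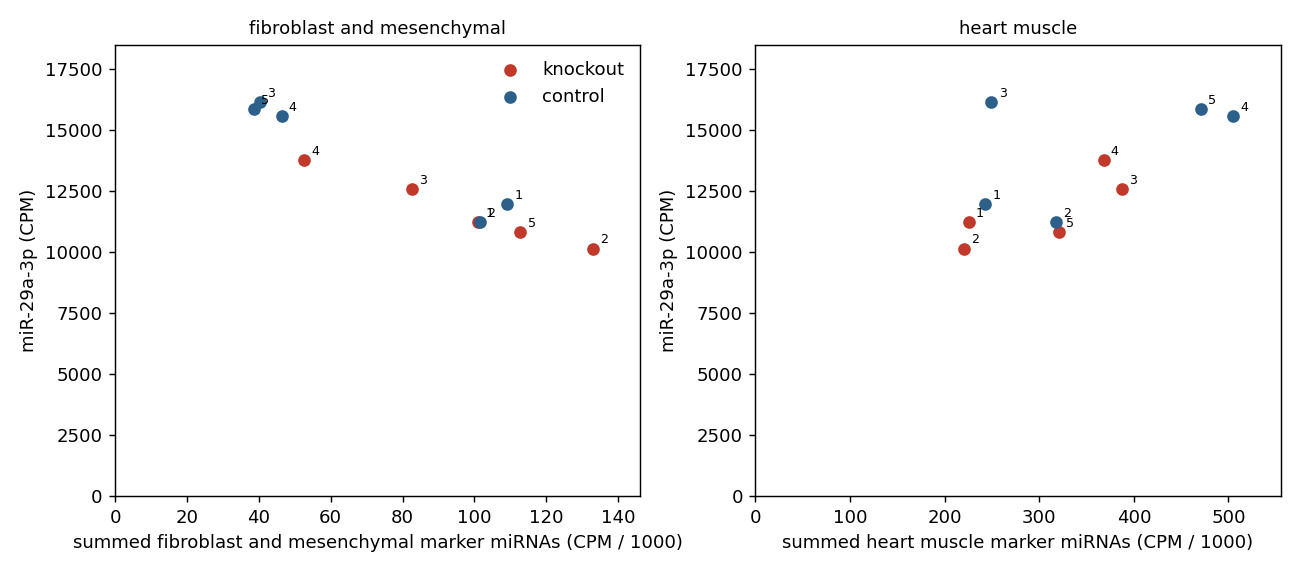
miR-29a-3p in CPM (vertical axes, linear) against the summed level of 6 fibroblast and mesenchymal marker miRNAs (left) and of 6 heart muscle marker miRNAs (right), in CPM divided by 1000, 1 point per library, knockout red and control blue, digits for replicates. On the left the libraries of both genotypes fall along one descending course (r = -0.98, and -0.39 with library totals). There miR-21a-5p is 79.7% of the sum in knockout and 77.6% in control libraries. The list was set beside miR-29a-3p after the likeness to miR-21a-5p was seen, so the course is a description without a test. On the right control replicate 3 lies apart from the others, and most of the sum is miR-1a-3p.

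Other miRNAs that earlier work links to cardiac fibrosis give the family's neighbours in the same test. These lists were chosen with earlier results of these data known, so their counts by direction are a description only. Of 13 miRNAs linked to less fibrosis, all tested, 12 had a negative and 1 a positive estimate, with a median log2 fold change of -0.33. Of 11 linked to more fibrosis, 3 were negative and 8 positive, with a median of 0.28. Both counts by direction rest on TMM factors. They are not given here for library totals, for the component as covariate or with a library left out. Over all 457 miRNAs tested, 214 were negative and 243 positive. In edgeR's test 0 of the 24 listed miRNAs were called in either direction, as were 0 of all 457. Of the 24, 3 were lower and 1 was higher at an unadjusted p under 0.05, where 3.5% (16) of all 457 were lower and 2.84% (13) higher. The 3 lower ones were the muscle miRNAs miR-133a-3p (log2 fold change -0.46 ± 0.17) and miR-133b-3p (-0.56 ± 0.22), together with miR-30a-5p (-0.61 ± 0.23). The last, known to target connective tissue growth factor, averaged 19295 ± 5570 CPM in knockout and 29529 ± 6892 CPM in control hearts. Among those with positive estimates and the smallest p were miR-21a-3p (0.98 ± 0.39), the passenger strand of miR-21a-5p, and, not under 0.05, miR-154-5p (0.44 ± 0.21) and miR-433-3p (0.49 ± 0.26), which are both encoded in the Dlk1-Dio3 cluster. The medians were beside 0.03 over all 457 miRNAs, and many of these miRNAs are also markers of heart muscle or fibroblasts, whose summed levels are given above.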

How the data were processed

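The authors deposited raw read counts per mature miRNA for 10 libraries and a second table, a linear signal per miRNA. Each deposited signal value equals the count divided by 1 factor per library (relative tolerance 1e-09, 10 of 10 libraries), which was the same as DESeq2's own size factor in each. The kit was NEXTflex Small RNA Sequencing (Bioo-Scientific), per the labels. The submitters' processing notes list Bowtie, cutadapt 1.10, DESeq2 and STAR, and the build GRCm38, without roles. The sources used here do not give the annotation release, how reads matching several miRNAs were handled, or whether molecular identifiers were used, so intervals cover counting error or the spread between libraries, not amplification bias.

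Columns were matched to libraries by title. The members and lists were chosen with earlier results of these data known. Replicates differed well beyond sampling noise (lowest chi-square over its degrees of freedom 108), so each library was counted as 1 replicate. This value cannot show whether libraries come from separate animals. The filterByExpr function of edgeR kept 457 miRNAs with 99.99% of counts. Knockout was tested against control over all 457 with edgeR's quasi-likelihood test (edgeR 4.0.16, R 4.3.3, TMM factors, genotype as the only term, Benjamini-Hochberg adjustment, threshold 0.05). The SE is the log2 fold change divided by the square root of F, and 95% intervals use the t distribution. log2 CPM used a prior count of 2, and ratios added 0.5 to each count. Ratios were tested by exact permutation and correlations with 100000 resamples (numpy 2.4.6). Alternatives used DESeq2 1.42.0 and limma 3.58.1. The fits were tested on simulated data. Named miRNAs were all arms, up to 3 per direction of the fibrosis lists by smallest p, miR-1a-3p and miR-21a-5p, and the 4 highest and 2 lowest by r with the summed 3p arms.

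Replicate numbers 1 to 5 recur in both genotypes without a stated meaning, so libraries were not treated as pairs.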

Additional observations from a re-analysis of the deposited data

Results flagged for a closer look

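For every arm, every ratio and the summed 3p level, the gap between an extreme library and its nearest neighbour was divided by the range of its genotype, and values above 0.71 (5 samples) were noted. In 28 such groups, where chance alone gives 1 in 20, or 1.4, 1 library stood apart. Knockout replicate 2 had a ratio of miR-29b-3p to miR-29a-3p of 0.0230, against 0.0149 to 0.0166 in the other knockout libraries, a share of the range of 0.787.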

How the results depend on the processing

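The count of 0 called arms of 7 and of 0 called miRNAs of 24 linked to fibrosis was the same in all 19 alternative fits. Among these, the smallest adjusted p of an arm was 0.18, with the replicate block or with sample weights. No arm was called with the replicate block, where 2 arms had an unadjusted p under 0.05 (smallest 0.0081 for miR-29c-3p). Deviations of same-number libraries had correlations of -0.12 to 0.45, the best match carried the same number for 4 of 10 libraries, and the block changed no call. For the ratios, a replicate block by sign flips within 5 pairs cannot give a p below 0.0625, so its 0 of 6 says nothing about stability. The log2 fold change of miR-29c-3p ranged from -0.71 to -0.10 and that of miR-29c-5p from -0.41 to -0.24. miR-29b-2-5p turned to 0.011 with the first principal component as covariate. miR-29b-1-5p was not tested under the stricter filter (10 CPM in 5 libraries). With 1 library left out, the log2 difference in miR-29a-3p to miR-29a-5p ranged from -0.037 to 0.059 (-0.037 without control replicate 2, -0.0034 without control replicate 3, -0.018 without knockout replicate 4 and -0.022 without knockout replicate 5), and that of miR-29b-3p to miR-29a-3p from -0.016, without knockout replicate 2, to 0.14. With library totals, the correlation of miR-29a-3p with fibroblast markers was -0.39 and with erythroid markers 0.32, and the sign turned for heart muscle (-0.20) and epithelial and liver markers (0.24). The cause was not tested. Correlations past the threshold ranged from 2 to 7 of 7 with 1 library left out. Depth limits miR-29b-1-5p, with 9 to 53 counts.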
